A study of Mus musculus with 6 samples.

Results

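The genes described here encode the nuclear subunits of the mitochondrial respiratory chain and of ATP synthase, with the assembly factors that share the complex I gene prefix. They were chosen by name: every gene whose probe set lists 1 symbol, with that symbol starting in Nduf, Uqcr, Atp5, or Cox4 to Cox8. The rule gave 86 of the 18193 genes that could be named in this way, from 170 probe sets, and 48 of the 86 genes had several probe sets. Where a gene had several probe sets, the one brightest on average (mean log2 over the 6 arrays) stands for it. The rule itself uses names and mean signal, but the set was taken up with earlier results of these arrays known, as a bright set on which to look at the proximal RA array. The 86 genes comprise 6 core and 28 accessory subunits of complex I, 8 complex I assembly factors, 8 subunits of complex III, 19 genes grouped with complex IV and 17 genes of ATP synthase. Assembly factors are not subunits of the finished complex, and ATP synthase is counted with the chain here although it carries no electrons. Ndufa4 was placed with complex IV, where its protein resides.

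The respiratory chain passes electrons from NADH through complex I, ubiquinone, complex III and cytochrome c to complex IV, which reduces oxygen. Complexes I, III and IV pump protons across the inner mitochondrial membrane, and ATP synthase lets them flow back to make ATP. Each complex joins proteins encoded by mitochondrial DNA with many encoded in the nucleus, and the nuclear genes are broadly expressed. Several complex IV subunits have a second isoform that is known mainly from heart, skeletal muscle, lung or testis. The limb bud at this stage is mostly mesenchyme under an ectodermal jacket, with vessels and circulating primitive erythrocytes.

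The study compared proximal and distal parts of CD1 mouse forelimb buds at E10.5, with 6 groups of 1 array each. The control buds were labelled Ring1A-/- in the genotype field and wild type in the free description, and the series text calls them Ring1A knockout. The double knockout (dKO) buds were Prx1-Cre; Ring1A-/-; Ring1Bfl/fl, in which Cre is driven in limb mesenchyme, so ectoderm, blood and vessels need not lose Ring1B. Ring1A and Ring1B are the E3 ligases of Polycomb repressive complex 1. The third condition was wild type embryos whose mothers received all-trans retinoic acid (RA) at 100 mg/kg by gavage at E10.25, so the RA arrays differ from the control arrays in the Ring1A label as well as in treatment, and these cannot be told apart. The labels do not say how many buds were pooled, or whether a proximal and a distal sample came from the same embryos. With 1 array a group there is no replicate spread, and a difference between 2 arrays is a description of those arrays.

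Signals are in the arbitrary units of the Affymetrix MAS5 program, and each array was floored at its own median before logarithms were taken, at 59.5 to 76.1 units. A gene is said to be above the floor where its signal exceeds that median. The trimmed mean was 500 on each array. The proximal RA array had the highest maximum signal, 26458 against at most 16620 on the others, and its 99th percentile was 9474 against 7204 to 7712. Its 3' to 5' signal ratio for the Gapdh control was 1.60 against 1.28 to 1.39, and its correlation with the other arrays across 12147 genes was 0.927 to 0.951. Both RA arrays also stood apart in the hybridization control BioB, at 84.4 and 103 against 1105 to 1223, in Xist, at 12.9 and 29.5 against 3017 to 3688, and in the Y-linked Eif2s3y, at 2783 and 3064 against at most 12.3, and their part in the RA values was not tested. The probe sets for Ring1 (Ring1A; 245 to 968) and Rnf2 (Ring1B; 1887 to 2147) were above the floor on every array, and give no check of the deletions because their place relative to the deleted parts was not compared. All 8 limb mesenchyme markers were above the floor on every array, with a summed signal of 13939 on the proximal RA array and 19861 to 23247 on the other 5. From proximal control to proximal RA, 7 of the 8 were lower, unevenly. Lhx9 read 4192 and 982, Msx1 3115 and 1013, Hand2 2290 and 1164, and Prrx1 6876 and 5750. Msx2 was higher, at 618 and 857. The part of cell numbers in these values was not tested.

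Promoter sequences for 71 of the 86 genes (76 windows from 250 bases before to 50 bases after the RefSeq start, GRCm38.p6) were searched on both strands for sites known from nuclear genes of the mitochondrion. An NRF1 site (GCGCA, any base, GCGC) was in 16 of the 76 windows (21.1%), against 4.60% of all 32851 windows of that length. An ETS site (CCGGAAG), the kind bound by GABP, was in 17 (22.4%) against 8.86%, and a YY1 site (AAGATGGCG) was in 7 (9.21%) against 1.40%. At least 1 of these sites was in 35 windows (46.1%), against 13.6% of all. The GC box (GGGCGG) was in 34 (44.7%) against 35.7%, the CCAAT box (CCAAT) in 31 (40.8%) against 37.4%, and TATAAA in 9 (11.8%) against 13.6%. Among the members' matches, 1 ETS match and 1 GC box match overlapped another motif. A match describes the letters of the window and is not evidence of binding. The 250 bases before the start are printed for Ndufb7, Atp5c1 and Ndufb6, whose signals were far from the other arrays on the proximal RA array, and for Cox8b, a muscle isoform that was not above the floor on any array, with every match to the 6 motifs in capitals. Ndufb7 (chr8:83566508-83566757, plus strand) has an ETS site at -20 and TATAAA on the other strand at -235, counted from the start. Atp5c1 (chr2:10080433-10080682, minus strand, the window of 1 of its 2 starts) has an NRF1 site at -17 and a CCAAT box at -240. Ndufb6 (chr4:40279422-40279671, minus strand) has an ETS site at -232 and GC boxes at -163 and -39. Cox8b (chr7:140900447-140900696, minus strand) has no match in these 250 bases. A TATAAA match begins at position 5 after its start, outside the printed bases.
Ndufb7: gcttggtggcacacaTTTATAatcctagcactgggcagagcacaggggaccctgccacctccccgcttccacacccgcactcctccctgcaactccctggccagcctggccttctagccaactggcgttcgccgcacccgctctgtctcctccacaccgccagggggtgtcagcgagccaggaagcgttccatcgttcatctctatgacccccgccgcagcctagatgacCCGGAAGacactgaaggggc
Atp5c1: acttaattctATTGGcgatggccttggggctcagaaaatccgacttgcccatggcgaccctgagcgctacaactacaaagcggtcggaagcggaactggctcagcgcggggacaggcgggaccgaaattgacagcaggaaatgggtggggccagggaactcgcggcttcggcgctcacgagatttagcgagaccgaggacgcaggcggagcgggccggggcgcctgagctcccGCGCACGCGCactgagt
Ndufb6: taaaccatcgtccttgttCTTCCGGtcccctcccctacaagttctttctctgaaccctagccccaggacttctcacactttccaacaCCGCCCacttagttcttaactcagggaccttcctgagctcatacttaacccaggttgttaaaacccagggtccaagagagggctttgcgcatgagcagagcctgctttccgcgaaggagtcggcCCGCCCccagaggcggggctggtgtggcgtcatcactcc
Cox8b: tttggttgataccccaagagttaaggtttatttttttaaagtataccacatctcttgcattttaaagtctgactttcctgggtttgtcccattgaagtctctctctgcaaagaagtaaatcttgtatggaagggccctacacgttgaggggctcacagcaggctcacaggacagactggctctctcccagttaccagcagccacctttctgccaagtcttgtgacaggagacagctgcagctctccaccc
On the proximal RA array Ndufb7 and Atp5c1 were high and Ndufb6 was low. An ETS match stands in the windows of both Ndufb7 and Ndufb6.

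Of the 86 genes, 82 passed the floor on 1 array or more and 79 on all 6. The genes not above the floor on any array were Cox7b2, Cox8b and Cox8c, isoforms known from testis or muscle, and Ndufb4, whose brighter probe sets list several symbols. All 6 complex I core genes, 8 assembly factors, 8 complex III genes and 17 ATP synthase genes were above the floor on every array. Of the 82, 69 were among the 3037 genes that form the brightest 25% by mean signal of all 12147 genes that passed the floor on 1 array or more. Signals of different probe sets are not compared as transcript levels, and the genes named for a high or low mean signal are named by that rule alone.

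Over the 5 arrays other than proximal RA, the respiratory chain genes varied little. The median ratio of the highest to the lowest floored signal was 1.18, and 73 of the 82 genes (89.0%) stayed under 1.5-fold. The ratio was 1.37 and the share 62.9% over all 12147 genes, but for the brightest 25% they were 1.20 and 92.4%. The 76 mitochondrial ribosomal genes, at 1.18, and 45 cytosolic ribosomal genes, at 1.18, had the same median ratio. The low spread is therefore a property that the members share with other bright genes on these arrays. With the proximal RA array added, the members' median ratio was 1.53 and 38 of 82 stayed under 1.5-fold. The 9 genes at 1.5-fold or more over the 5 arrays were Cox4i2 (2.74), Cox7c (2.07), Ndufb1 (2.06), Cox6b2 (1.73), Ndufa4l2 (1.71), Cox7a1 (1.58), Ndufaf4 (1.54), Ndufa6 (1.52) and Ndufaf7 (1.52). Of these 9, 5 belong to complex IV and are isoforms or small subunits, and none is a complex III or ATP synthase gene.

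**Figure D1:**
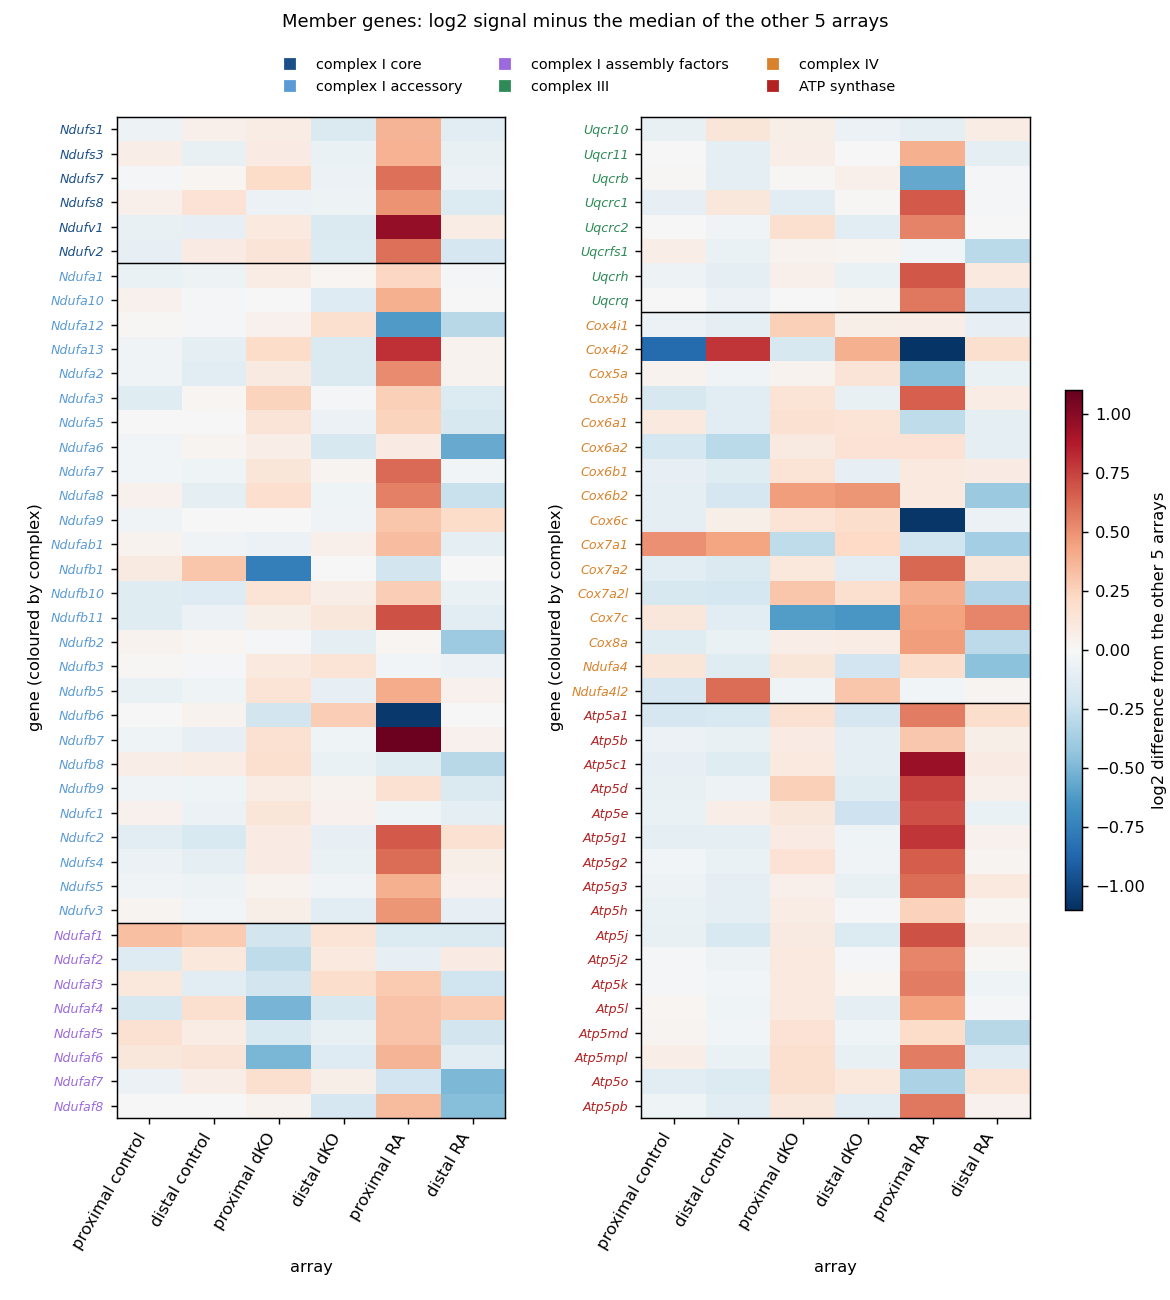
Heat map of the 82 genes that passed the floor (rows, gene names coloured by complex) on the 6 arrays (columns); colour gives the log2 signal minus the median of the other 5 arrays, red for higher. The proximal RA column holds the widest range, from Ndufb7 at 1.08 to Cox4i2 at -1.08, and its ATP synthase rows are all above 0 except Atp5o at -0.35.

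The first question was whether proximal and distal parts of a control bud differ in these genes. They were close: over the 81 genes above the floor on either array the median difference, proximal minus distal, was 0.02 on the log2 scale, and the middle 50% lay between -0.03 and 0.05. The single gene past 2-fold was Cox4i2, the alternative isoform of complex IV subunit 4, which is known to be induced at low oxygen. None of the 81 genes was 2-fold higher proximally, where 1.35% of all 11391 genes were, and 1 was 2-fold lower, where 1.40% of all genes were. At 1.5-fold, 0 were higher (3.81% of all genes) and 2 were lower (3.86%), Cox4i2 and Ndufa4l2, a paralogue of Ndufa4 that is also known from low oxygen. Medians by complex ranged from -0.04 for the core of complex I to 0.05 for complex III. The 17 ATP synthase genes all lay between -0.08 and 0.09.

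For Cox4i2 the control pair read 121 and 332, the dKO pair 192 and 252, and the RA pair 103 and 217, with the proximal array first here and in all pairs that follow. The proximal value was the lower one in all 3 pairs, and the 3 proximal arrays (103 to 192) did not overlap the 3 distal ones (217 to 332). The share of all genes that separate in this way is not given here, so the separation is only a description of this gene. Cox4i2 has 2 probe sets, and values of the one not used are not given here. The differences were -1.46, -0.39 and -1.08. In the limma fit with part and condition as additive terms, which asks whether a difference is alike across the pairs, proximal minus distal was -0.98 (SE 0.25) with an adjusted p of 0.270, so Cox4i2 did not pass. Its adjusted p ranged from 0.0144 to 0.455 over the 14 fits tried and was under 0.05 in 3 of them. Surface ectoderm markers had a summed signal of 5952 to 7827 on proximal arrays and 7902 to 11889 on distal arrays. All 7 markers were lower proximally in the control and dKO pairs, whereas in the RA pair 4 were lower and 3 higher. Their part in the Cox4i2 difference was not tested. In bulk tissue, fewer cells of a type and less RNA per cell cannot be told apart. Ndufa4l2 read 74.9 and 128 in control, 82.0 and 103 in dKO, and on the RA pair 83.5 and 85.0, close to the floor throughout. Cox4i1, the ubiquitous isoform of the same subunit as Cox4i2, read 6610 and 6408, 7944 and 6923, and 6970 and 6520 on the same pairs, with no pair apart by 1.5-fold.

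In the dKO bud the proximal part was again close to the distal part, with a median of 0.09 over 81 genes. At 2-fold, 0 genes were higher (0.515% of all 11642 genes) and 0 lower (0.722%). At 1.5-fold, 0 were higher (3.18% of all) and 1 was lower (3.64%). That gene was Ndufb1, a small accessory subunit of the complex I membrane arm, which was at the floor on the proximal dKO array, so its fold of at least 1.68 is a bound. The 17 ATP synthase genes were all higher proximally, by 0.06 (Atp5o) to 0.34 (Atp5d), with a median of 0.17 (14 of 17 were higher after quantile normalization), and the 8 assembly factors had a median of -0.24. The median over all genes was 0.01 in this pair.

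The second question was whether loss of Ring1B in mesenchyme, on a Ring1A-/- background, was accompanied by a difference in these genes. In the proximal part the median of dKO minus control was 0.10 over 81 genes, with 62 above 0, and the median over all 11580 genes was 0.02. None was 2-fold higher (4.07% of all genes) or 2-fold lower (0.363%). At 1.5-fold in either direction there were 3 genes, where 12.1% of all genes were: Cox4i2, higher at 0.67, and Ndufb1 and Cox7c, lower at -0.84 and -0.62. The Ndufb1 value is a bound, at least 1.80-fold, since the proximal dKO array was at the floor. All 17 ATP synthase genes were higher, from 0.06 for Atp5g3, which encodes the rotor ring subunit c, to 0.28 for Atp5d, the delta subunit of the rotor stalk. In the same comparison 39 of 43 cytosolic ribosomal genes were higher, with a median of 0.18. When each array is divided by its median, 1 of the 17 ATP synthase genes, Atp5d, is above 0, and after quantile normalization 14 are. The assembly factors pointed the other way, with a median of -0.23 and 6 of 8 below 0, where 5465 of all 11580 genes were below 0. Ndufaf6 was lowest, at -0.50, with 397 on the proximal dKO array and 507 to 666 on the other 5. Ndufaf1, an early complex I assembly factor, was at -0.38 and Ndufaf4 at -0.34. None of these genes passed the limma test. The median of 0.10 turns to -0.09 when each array is divided by its median, a scaling that moves the median over all genes by -0.19, so no direction for the whole set is drawn from it.

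In the distal part the dKO and control arrays were closer still, with a median of 0.01 over 81 genes. At 2-fold, 0 genes were higher (5.32% of all 11646 genes) and 0 lower (0.524%), and at 1.5-fold 0 were higher (12.1%) and 0 lower (2.18%). The highest was Cox6b2 at 0.56 and the lowest Cox7c at -0.52. The assembly factors lay below 0 in 7 of 8 genes, with a median of -0.11, where 5679 of all 11646 genes lay below 0. After quantile normalization 5 of the 8 were below 0, with a median of -0.08. Among the 3037 brightest genes, 0 were 2-fold higher and 1 was 2-fold lower in proximal dKO, and 5 and 2 in distal dKO, so the near absence of large differences is shared with other bright genes.

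Cox6b2 and Cox7c, the extremes of the distal dKO comparison, had the same sign in the proximal part. For Cox6b2, known as the testis isoform of subunit 6B, the control pair read 1174 and 1112, the dKO pair 1610 and 1641, and the RA pair 1264 and 951. Both dKO values lay above the other 4. The fitted dKO effect was 0.51 (SE 0.18) with an adjusted p of 0.308 in limma, and it did not pass. Without the proximal RA array the effect was 0.51 (SE 0.10) with an adjusted p of 0.00428. Over the 12 fits tried its adjusted p ranged from 0.00365 to 0.498 and was under 0.05 in 4. For Cox7c, a small nuclear subunit of complex IV, the control pair read 649 and 594, the dKO pair 423 and 415, and the RA pair 809 and 862. Both dKO values lay below the other 4 and both RA values above. Its fitted dKO effect in limma was -0.57 (SE 0.21), adjusted p 0.325 (0.0208 to 0.976 over 12 fits), and -0.57 (SE 0.15), adjusted p 0.0208, without the proximal RA array. The probe set used for Cox7c is of a kind that can match several transcripts, and its other probe set read 46.7 to 151 and passed the floor on 3 arrays. In the fit without the proximal RA array, 10.1% of all 12147 genes were called higher and 1.73% lower in dKO.

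**Figure D2:**
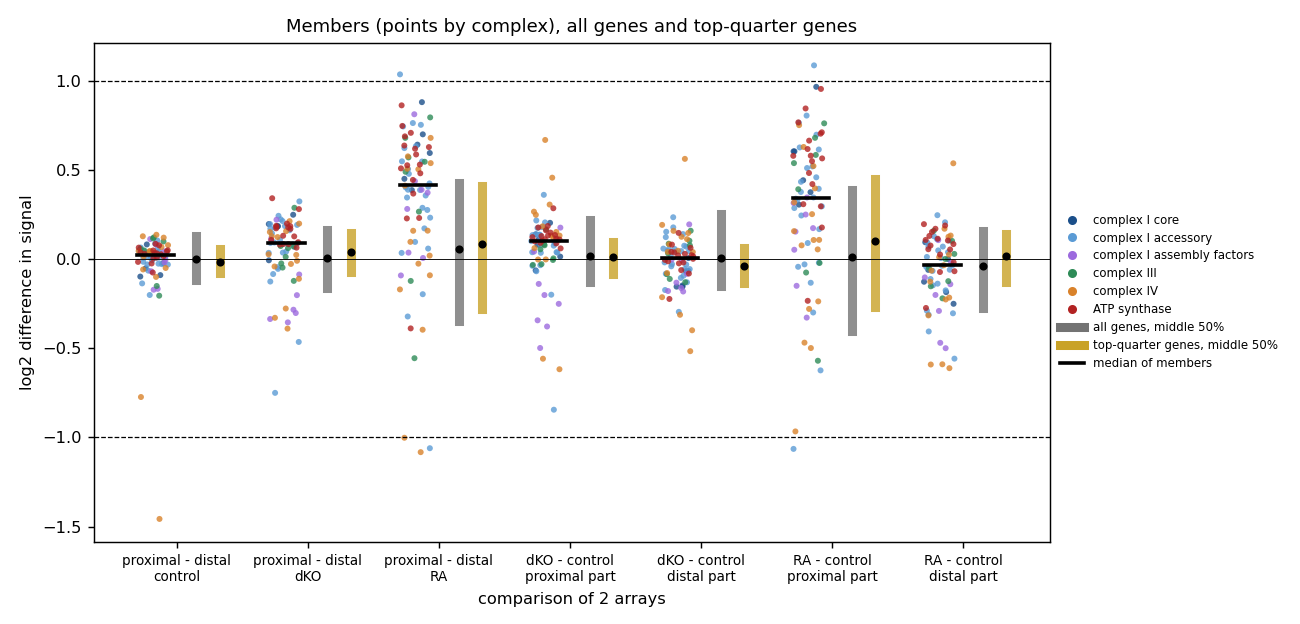
Log2 difference in signal for each member gene (points, coloured by complex) in the 7 comparisons of 2 arrays, with the median of the members (black line); grey and gold bars give the middle 50% of all genes and of the brightest 25%, with their medians as black dots, and dashed lines mark 2-fold. The members lie near 0 in 5 comparisons and reach medians of 0.42 and 0.34 in the 2 that use the proximal RA array.

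The third question was what RA exposure did to these genes. On the distal arrays, RA and control were close: the median was -0.03 over 81 genes and the median over all 11388 genes was -0.04. None was 2-fold higher (2.16% of all genes) or lower (2.13%). At 1.5-fold, 0 were higher (5.90%) and 3 were lower (8.47%): Cox4i2 at -0.61, Ndufa4l2 at -0.59, and Cox7a1, the heart and muscle isoform of subunit 7A, at -0.59 with the distal RA array at the floor. Assembly factors were below 0 in 7 of 8 genes, with a median of -0.17, where 6307 of all 11388 genes were below 0. The lowest was Ndufaf7 at -0.50, a methyltransferase that acts on a core complex I subunit. Ndufa6, an accessory subunit of complex I, read 1353 and 1378 in control, 1425 and 1221 in dKO, 1439 on the proximal RA array and 936 on the distal RA array, which stood alone.

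On the proximal arrays the picture was different, with a median of 0.34 for RA minus control over 82 genes and 64 above 0, where the median over all 11521 genes was 0.01. One accessory subunit was past 2-fold in each direction: Ndufb7 at 1.09 (2.12-fold) and Ndufb6 at -1.06 (2.09-fold lower). These counts of 1 higher and 1 lower stand beside 3.69% and 6.80% of all genes. At 1.5-fold, 20 genes were higher, where 14.5% of all genes were, and 3 were lower, Ndufb6, Cox6c and Ndufa12, where 17.6% of all genes were. Against the distal RA array the median was 0.42 over 82 genes, with 1 gene 2-fold higher (4.40% of all 11493 genes) and 3 lower (6.16%), and with 22 higher at 1.5-fold (16.7%) and 3 lower (15.4%). These comparisons share the proximal RA array. The difference of the proximal-minus-distal differences, RA against control, had a median of 0.39 over the members and 0.03 over all genes, and no replicate stands behind it.

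Beside the median of the other 5 arrays, the proximal RA signal was higher by a median of 0.37 over the 82 members. At 1.5-fold, 20 were higher (13.0% of all genes) and 4 lower (17.0%). The signal was above all 5 in 58 genes and below all 5 in 9, where 31.9% and 31.5% of all 12147 genes were. The 58 include Cox6a2, which passed the floor on this array alone. For the brightest 25% the shares were 46.5% and 31.2%. No other array had a member median further from 0 than 0.09. The middle 50% of members spanned 0.50 on the proximal RA array and 0.12 to 0.21 on the others. Other bright lists were high there too: the cytosolic ribosomal genes had a median of 0.60, with 37 of 45 above all 5 arrays, the mitochondrial ribosomal genes 0.30 with 50 of 76, and the brightest 25% of genes 0.11. After quantile normalization, which gives each array the same distribution, the members' median was 0.16, with 44 above all 5 and 16 below, and the cytosolic ribosomal median was -0.04. The array's long upper range moved with these values, and its part in them was not tested. On the same array the erythroid markers had a summed signal of 46027 against 33069 to 39690 on the others, with 6 of 7 above the floor on every array and Hba-a1 under it. That sum was carried by the embryonic globins Hba-x and Hbb-bh1, while Alas2, Klf1 and Epor had their lowest signals there, and the list's median for RA minus control was -0.06, with 3 genes above 0 and 3 below. All 6 endothelial markers were higher on the proximal RA than on the proximal control array, with a median of 0.61, and their summed signal of 3188 was the highest (1526 to 2887 on the other 5). The muscle fibre markers had 1 of 6 above the floor there and 0 or 1 elsewhere. The part of these cell types in the members' values was not tested.

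The values of each complex on the proximal RA array are those of the probe sets used, and no difference between complexes was tested. All 6 core subunits of complex I were above the other 5 arrays, with a median of 0.55. Ndufv1, the flavoprotein where NADH gives up its electrons, read 4553 and 4527 in control, 4913 and 4323 in dKO, 8887 on the proximal RA array and 4832 on the distal RA array. The proximal RA value stood alone, at 1.95-fold over proximal control, and the other 5 lay between 4323 and 4913. Ndufb7 read 5805 and 5642 on the control pair, 6549 and 5819 on the dKO pair, and 12315 and 6011 on the RA pair. Ndufa13, also known as GRIM-19, was 0.80 above the median of the other arrays. Ndufb6, another membrane arm subunit, read 4295 and 4388 on the control pair, 3739 and 5160 on the dKO pair, and 2054 and 4284 on the RA pair. Ndufb6 was thus low on the array where Ndufb7 was high. Ndufc1 and Ndufb11, the other complex I genes named for a high mean signal, were at -0.04 and 0.70.

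In ATP synthase, 16 of 17 genes were above all 5 other arrays, with a median of 0.56. Atp5c1, the gamma subunit that turns inside the catalytic head, read 6993 and 6814 on the control pair, 7552 and 6916 on the dKO pair, and 13538 and 7453 on the RA pair. Atp5d was at 0.74, Atp5a1 (alpha) at 0.56 and Atp5b (beta, catalytic) at 0.30. The subunit c genes Atp5g1, Atp5g2 and Atp5g3, which encode the same mature protein, were at 0.79, 0.66 and 0.62. Atp5l, subunit g and the gene of lowest mean signal here, was at 0.44. The exception was Atp5o, which encodes the peripheral stalk protein OSCP, at -0.35. After quantile normalization the ATP synthase median was 0.12 with 9 of 17 above all 5 arrays. The complex I core median was then 0.34 with 6 of 6, and both rest on the probe sets used.

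Complex III split. Uqcrc1 and Uqcrc2, the core proteins, were at 0.68 and 0.54, Uqcrh at 0.68 and Uqcrq at 0.58. Uqcrb, a small subunit near the ubiquinone site, was at -0.56, reading 10434 and 9630 on the control pair, 10395 and 10747 on the dKO pair, and 7029 and 10332 on the RA pair. Uqcrfs1, the Rieske iron-sulphur protein, was at -0.03. Complex IV had a median of 0.11 over 16 genes, with 6 above all 5 other arrays and 4 below. The 6 include Cox6a2, which entered the set only by passing the floor, narrowly, on the proximal RA array. Cox5b and Cox7a2 were at 0.65 and 0.63, Cox6b1 at 0.11, Cox4i1 at 0.08 and Cox5a at -0.47. Cox6c read 6610 and 7086 on the control pair, 7504 and 7725 on the dKO pair, and 3383 and 6774 on the RA pair, so the proximal RA value was low by 1.07. The 8 assembly factors had a median of 0.30 and none was 1.5-fold away from the other arrays. Of these, Ndufaf4 was at 0.31, Ndufaf2, a paralogue of Ndufa12, at -0.09, Ndufaf8 at 0.34 and Ndufaf6 at 0.37. The X-linked members Ndufa1 and Ndufb11 were at 0.23 and 0.70 on the proximal RA array and at -0.02 and -0.11 on the distal RA array, the 2 arrays with low Xist.

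Probe sets of one gene gave different answers on this array. For 43 members with at least 2 probe sets above the floor on every array (111 probe sets), the range between probe sets of the deviation from the other 5 arrays had a median of 0.48 on the proximal RA array and 0.09 to 0.20 on the others. It was 1.5-fold or more in 20 genes and 2-fold or more in 9, and in 3 genes probe sets stood 1.5-fold or more apart from 0 in opposite directions. Over the 4440 genes with such probe sets the median range was 0.66 on this array, with 55.5% at 1.5-fold or more, and 0.20 to 0.29 on the others. Several low values were not shared by another probe set of the gene: Cox6c was at -1.07 with the probe set used and 0.55 with the other, Ndufb6 at -1.06 and 0.11, and Atp5o at -0.35 and 0.76. Ndufa12 was at -0.62 with the probe set used, and at 0.24 and 0.99 with 2 others. Cox6b1 was at 0.11 and 1.01, and Cox5a at -0.47 with the probe set used and -1.11 and 0.34 with the others. High values were also not always shared: Atp5pb, subunit b of ATP synthase, was at 0.58 with the probe set used and -0.51 with the other, Uqcrc2 at 0.54 and -0.06, and Ndufa10 at 0.39 and -0.23. Atp5a1 was at 0.56 with the probe set used and 0.71 and 0.06 with the others. Among the complex I core genes, probe sets of Ndufs8 ran from -0.64 to 1.12 and those of Ndufv2 from -0.12 to 0.60. Those of Ndufv1 (0.44 to 0.96) and Ndufs7 (0.58 to 0.60) were all above 0. The widest was Ndufs4, an accessory subunit needed for stable complex I, whose probe sets ran from -1.65 to 0.61, the last being the one used. Ndufb7 held in both probe sets, at 1.08 and 0.85, and Uqcrb in both, at -0.56 and -0.43. When all probe sets of a gene were averaged, the members' median on this array was 0.25 and no member was 2-fold from proximal control.

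**Figure D3:**
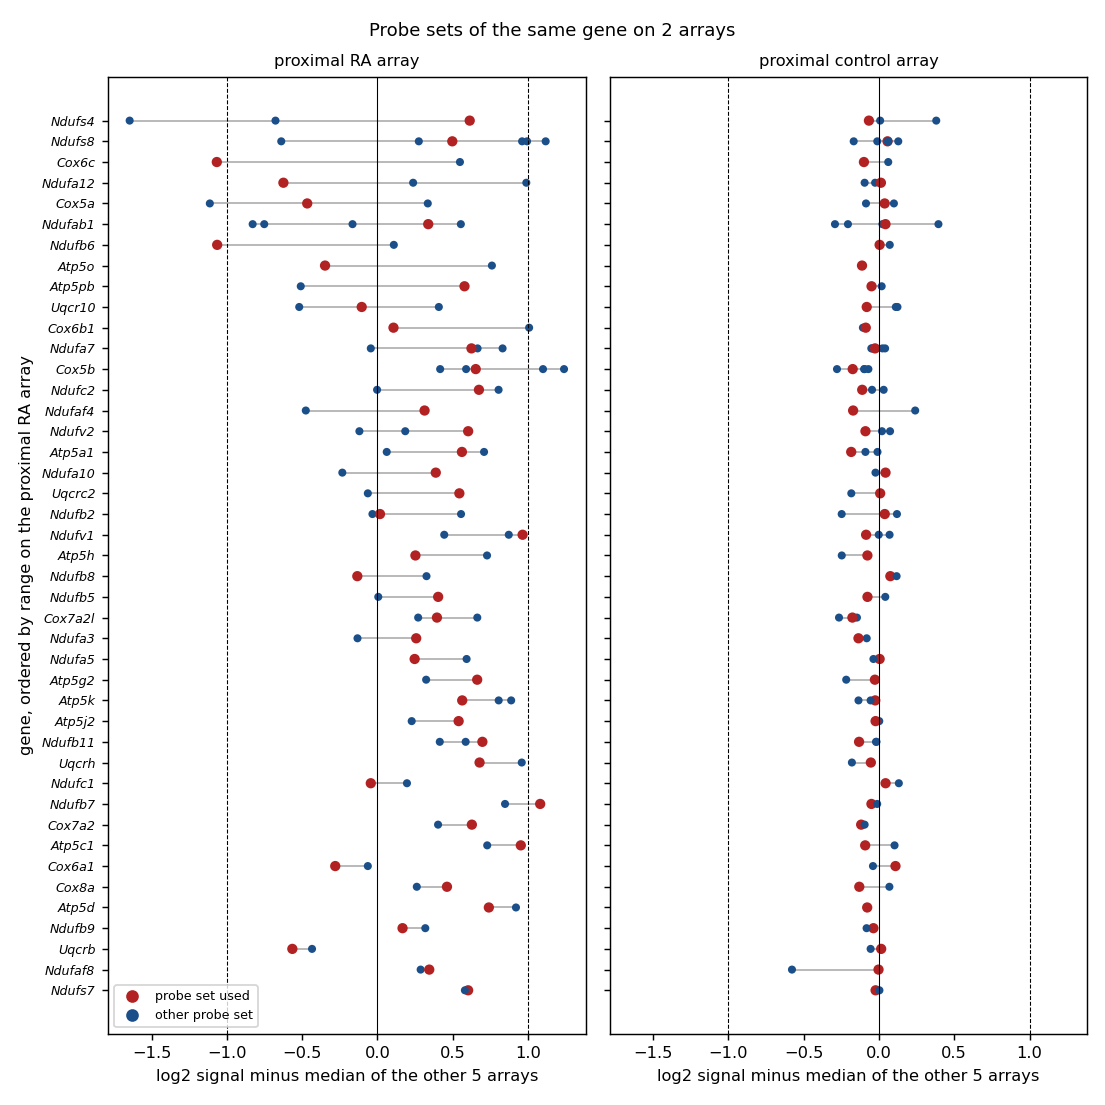
Log2 signal minus the median of the other 5 arrays for each probe set of the 43 genes with at least 2 probe sets above the floor on all arrays, on the proximal RA array (left) and the proximal control array (right); red marks the probe set used, blue the others, and dashed lines mark 2-fold. Grey lines are far longer on the left, with a median range of 0.48 against 0.12, and reach 2.26 for Ndufs4.

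Complex IV holds several pairs of isoforms. For subunit 6A, Cox6a1 read 7116 to 9012, while Cox6a2, the muscle isoform, read 22.3 to 76.1 and passed the floor on the proximal RA array alone. For subunit 6B, Cox6b1 read 8986 to 10287 and Cox6b2 951 to 1641, above the floor on every array. For subunit 7A, Cox7a2 read 9898 to 15773 and the related Cox7a2l, a factor in forming supercomplexes, 4488 to 6514. Cox7a1 read 108 and 103 on the control pair, 55.5 and 88.5 on the dKO pair, and 76.1 and 34 on the RA pair, and was at the floor on the proximal dKO and distal RA arrays. For subunit 8, Cox8a read 2102 to 3365, Cox8b 5.83 to 31.0 and Cox8c 4.87 to 28.1. Cox7b2, a testis isoform, read 0.801 to 3.33. Ndufa4 read 2378 to 3377, lowest on the distal RA array. Cox7b was not analysed here.

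**Figure D4:**
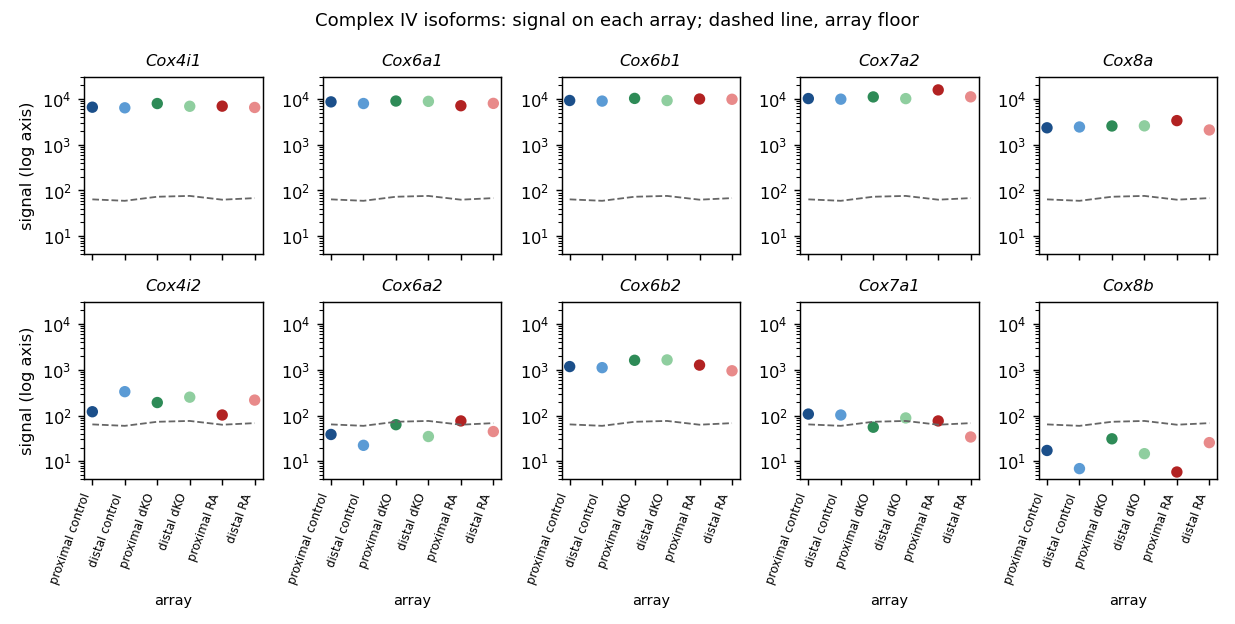
Signal (log axis, MAS5 units) of 10 complex IV isoforms on each of the 6 arrays; the dashed line is the floor of each array, and the top row holds the broadly expressed isoform of the subunit under which its alternative isoform stands. Points are to be read along a panel, since different probe sets do not share a scale: Cox4i2 is low on the 3 proximal arrays, and Cox8b lies under the floor on all 6.

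In the limma fit over all 6 arrays (12147 genes tested, 82 of them members, 2 residual degrees of freedom), no member passed an adjusted p of 0.05 for part, dKO or RA. Over all genes 0 were called higher (0.00%) and 0 lower (0.00%) for part, 2.21% higher and 0.115% lower for dKO, and 0.305% higher and 0.239% lower for RA. At an unadjusted p under 0.05 there were 3 members for part (3.66% of the 82, against 9.52% of all genes), 3 for dKO (3.66% against 11.6%) and 6 for RA (7.32% against 16.7%). The lowest adjusted p values among members were 0.270 (Cox4i2, part), 0.308 (Cox6b2, dKO) and 0.241 (Ndufa12, RA). The fitted effects of Ndufb7 and Ndufb6 for RA were 0.59 (SE 0.25) and -0.55 (SE 0.24), with adjusted p 0.303 and 0.315. A member's median SE was 0.14 for part and 0.17 for dKO and RA in this fit. Without the proximal RA array it was 0.09 for part and dKO. That fit called 1 member higher (Cox6b2) and 1 lower (Cox7c) in dKO, and 1 lower in RA, Ndufa6 at -0.50 (SE 0.14), adjusted p 0.0431, for which the RA effect rests on the distal arrays. For RA that fit called 3.85% of all genes higher and 5.79% lower, so 1 of 82 members is no more than the share over all genes.

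Other genes of the pathway were read in the same way. Complex II was represented by 4 genes with a median of -0.01 for dKO and 0.12 for RA in the proximal part, and none passed the limma test. Sdhd, a membrane anchor of complex II, read 5667 and 5307 on the control pair, 5088 and 5842 on the dKO pair, and 801 and 4678 on the RA pair. Cycs, cytochrome c, read 5843 and 5607 on the control pair, 5338 and 7195 on the dKO pair, and 1970 and 5667 on the RA pair. Both were low on 1 array. Each gene in these lists is read from 1 probe set, and values of any other probe set are not given here. Of 33 assembly factors outside the name rule, 0 were 2-fold higher on the proximal RA array than in control (3.69% of all 11521 genes). In this comparison 4 were 2-fold lower (6.80% of all genes), the median was -0.13 and 12 of 33 were above 0. Uqcc2, which assembles complex III, read 701 on the proximal RA array and 3670 to 5616 on the other 5 arrays. The complex I factor Tmem126b was 2-fold lower in both parts, at -1.04 and -1.08. For RA minus control in the proximal part, 0 of 12 TCA cycle genes were 2-fold higher and 1 lower. Of 13 glycolysis genes, 1 was 2-fold higher and 0 lower, beside the same shares of all genes. The glycolytic gene was Pfkp, the platelet-type phosphofructokinase, which read 253 and 317 on the control pair, 582 and 555 on the dKO pair, and 538 and 486 on the RA pair. Control values were thus the lowest in both parts, and Pfkp did not pass the limma test. Among 12 regulators of mitochondrial biogenesis, none of which passed, 11 were lower in the proximal dKO than in the proximal control array, with a median of -0.18. Over all 11580 genes, 5465 were lower in that comparison. In the distal part the regulators had a median of -0.02 for dKO minus control, with 5 above 0 and 6 below. Of all these lists, 1 gene passed for RA, the mitochondrial ribosomal gene Mrps23, which read 2831 and 2482 on the control pair, 2471 and 3071 on the dKO pair, and 766 and 1135 on the RA pair, and fell in RA.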

How the data were processed

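Total RNA of 6 forelimb bud samples was hybridized to 1-colour Affymetrix arrays, 1 per group. The deposited values are signal intensities made by the authors with MAS5, per the submitters' processing notes (no version is given in the sources used here) and scaled to a 2% trimmed mean of 500.

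Of 45101 probe sets, 34958 listed a single gene symbol in the platform annotation, with control probe sets left out. Signals were floored at each array's median and taken to log2. Differences between 2 arrays were counted at 2-fold and 1.5-fold over genes above the floor on either array. Additive models of part and condition were fitted with limma 3.58.1 to all 12147 genes that passed the floor on any array, in R 4.3.3 (lmFit, eBayes with trend, Benjamini-Hochberg adjustment, threshold 0.05), tested on simulated data first. Its p-values rest on how alike an effect was in different pairs of arrays, not on replicates.

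Members and gene lists were chosen with earlier results of these data known. Named genes were the 3 of highest and the 1 of lowest mean signal per complex, members past 2-fold or with the extreme difference in any comparison, isoform families, and list genes past 2-fold; others were named after their values were seen. Alternatives changed the scaling (quantile normalization, division by the median), the floor (25th percentile, or log2 of signal plus 16), the filter, the probe set rule, the arrays in the fit and limma's prior and weights. Promoters came from RefSeq (GRCm38.p6). The number of arrays limits the precision.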

Additional observations from a re-analysis of the deposited data

Results flagged for a closer look

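For RA minus control, the members' median was 0.34 in the proximal part, with 64 of 82 genes above 0, and -0.03 in the distal part, with 38 of 81 above 0. Over all genes the medians were 0.01 and -0.04, so the distal value of the members was near that of all genes. The members' difference between the parts was not tested, since each group holds 1 array.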

How the results depend on the processing

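The limma fit with condition as a term already compares proximal with distal arrays within each condition; a replicate block could not be added, since each group holds 1 array. Of the main medians and counts of members, 45 alternative values moved and 179 stayed the same, and the cause was not tested. The main limma fit called no member, so it held no call that could reverse. Division by the array median turned medians of 0.02 (control pair), 0.10 (proximal dKO) and 0.01 (distal dKO) negative. Under division by the array median, which shifted the median of all genes by up to -0.36, the members' medians were -0.084 (proximal minus distal in control), 0.53 (the same in RA), -0.092 and -0.35 (dKO, proximal and distal) and -0.23 (RA, distal), 0.48 for the proximal RA array against the others, and 0.61 and 0.24 for the differences of differences in RA and dKO. There 0 members were 2-fold lower in the RA pair and 1 in proximal dKO. Under quantile normalization the medians were 0.24 (RA pair), 0.17 (RA, proximal), 0.16 (proximal RA array) and 0.24 (difference of differences, RA), with 0 members 2-fold higher in the RA pair, 0 higher and 2 lower in proximal RA and 1 lower in proximal dKO. With the mean of all probe sets the proximal RA array median was 0.25, with 0 higher and 1 lower in the RA pair and 0 and 0 in proximal RA. Without a floor, 1 was lower in the RA pair and 1 in distal RA. With the floor at the 25th percentile, 1 was higher in the control pair, 3 in the RA pair, and 2 higher and 1 lower in distal RA. Without probe sets that can match several transcripts, chosen after seeing the data, 2 were higher in the RA pair. The shares of all genes at 2-fold under these settings are not given here, so these counts are not read as results about the members.

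In limma, arrayWeights called 3 members higher and 6 lower for part and 1 and 1 for dKO, with 7.41% and 6.81% of all genes called for part and 10.4% and 1.16% for dKO. Testing all genes with no filter called 2 lower for part, 5 higher for dKO and 1 higher and 2 lower for RA. There 2.44% of all genes were called lower for part, 41.5% higher for dKO, and 2.95% higher and 3.90% lower for RA, and 4 of the 5 members were at the floor on every array. Leaving out the control pair called Ndufb6 and leaving out the dKO pair Cox4i2 lower proximally (1 each). Leaving out the RA pair called 1 higher and 1 lower in dKO, and leaving out the proximal RA array 1 and 1 in dKO and 1 lower in RA. Over all genes, calls in these fits ranged from 80 to 7544 higher and 7 to 211 lower for dKO (269 and 14 in the fit reported), 13 to 536 and 2 to 709 for RA (37 and 29), and 0 to 900 and 0 to 827 for part (0 and 0). Wherever a fit with arrays left out called a member, a larger share of all genes than of members was called in that direction. Those calls are therefore not read as results about the members. An effect of a left-out condition, or any effect against left-out controls, was not estimable. Signals near the floor limit Cox4i2, Ndufa4l2, Cox7a1 and Ndufb1.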

Other observations

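Some probe sets for genes of the respiratory chain list several symbols and so fell outside the name rule. Of the genes named below, Ndufb4, Ndufs5 and Ndufab1 are also members, through probe sets that list their symbol alone. The probe set listing Ndufb4 with its copies Ndufb4b and Ndufb4c, an accessory subunit family of complex I, read 4528 and 4269 on the proximal and distal control arrays, 4834 and 4471 in dKO, and 6201 and 4051 in RA. The probe set shared by Ndufs6, a zinc-binding accessory subunit, and Ndufs6b read 5242 and 5315 on the control pair, 5827 and 5358 on the dKO pair, and 7243 and 5003 on the RA pair. On the proximal RA array these stood 0.47 and 0.45 above the median of the other 5 arrays. The probe set listing Ndufa11 with Ndufa11b stood 0.44 above and that of Ndufs5 with its pseudogene 0.57 above. A probe set listing Ndufab1, the mitochondrial acyl carrier protein, with its pseudogene went the other way, at 1672 on the proximal RA array and 3058 to 3946 on the others. The probe set used for the member Ndufab1 was 0.34 above the other arrays there, and its single-symbol probe sets ran from -0.83 to 0.55.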
